A study of Homo sapiens with 6 samples.

Results

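The levels of the mRNAs that the siRNAs were aimed at, ADAR and STAU1, were followed in 6 RNA-seq libraries of A172, an established human glioblastoma cell line. They were taken as the rows of the count table whose list of UCSC hg19 transcript IDs held uc001ffh or uc001ffj (ADAR) or uc002xua.3 (STAU1), whatever the version number. Of 20514 rows, 2 met this rule. The ADAR row began with uc001ffh.3, held uc001ffj.3 as well, and summed 8 transcripts, and the STAU1 row began with uc002xua.3 and summed 7. Both rows had enough reads to be tested, as did 14711 rows in all.

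There were 3 groups of 2 libraries, named replicates a and b. Cells of one group received a control siRNA (siControl), those of another an siRNA against ADAR1 (siADAR1), and those of the last siRNAs against ADAR1 and Staufen1 together (combined knockdown). The treatment text is shared by all 6 libraries and describes a plasmid for HA-tagged STAU1, transfected on the day following the siRNA. The Staufen1 siRNA is absent from that text, and the groups rest on the transfection label of each library. No group had the Staufen1 siRNA alone. The study asked how transcription changed with these knockdowns, and the present values show how far each target fell and whether ADAR fell as far in the combined knockdown as with siADAR1 alone.

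ADAR encodes ADAR1, an editing enzyme that turns adenosines of double-stranded RNA into inosines and keeps the cell's own double-stranded RNA from being sensed as foreign. It is made as a long form, induced by interferon and found largely in the cytoplasm, and a shorter form that is made constitutively and lies mainly in the nucleus. STAU1 encodes Staufen1, a double-stranded RNA-binding protein that carries mRNAs within the cell and brings the decay factor UPF1 to some of them, a route called Staufen-mediated mRNA decay. An siRNA guides cleavage of the mRNA it pairs with, so a fall of the targeted mRNA is the usual check of such a knockdown.

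In GENCODE release 29, on build GRCh38, ADAR lies on the minus strand of chromosome 1 from 154582057 to 154628013 with 23 annotated transcripts, 12 of them protein coding. STAU1 lies on the minus strand of chromosome 20 from 49113339 to 49188367 with 10 transcripts, all protein coding. The count table uses hg19, so these positions describe the genes and not the table. The first 60 coding bases at each start codon of complete protein-coding transcripts are shown because each gene is annotated with more than 1 protein form, while the table gives 1 value for a row of several transcripts. Which of the forms the transcripts of a row encode was not tested, and a fall of the row does not say which form fell. The start codon is in capitals, and the sequences read 5′ to 3′ from the GENCODE transcripts.
ADAR, long form, up to 1226 residues: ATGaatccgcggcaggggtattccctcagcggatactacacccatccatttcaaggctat
ADAR, short form, 931 residues: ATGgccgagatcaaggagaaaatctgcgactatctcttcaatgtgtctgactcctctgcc
STAU1, upstream start, 577 residues: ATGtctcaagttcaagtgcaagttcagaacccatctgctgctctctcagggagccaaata
STAU1, downstream start, up to 502 residues: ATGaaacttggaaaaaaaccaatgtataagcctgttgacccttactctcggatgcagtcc
These stretches lie on the minus strand of GRCh38 at chr1:154602582-154608006 (across 2 exons), chr1:154601697-154601756, chr20:49166142-49166201 and chr20:49153974-49154033, in the order given. Of the ADAR transcripts with a complete coding sequence, 3 used the upstream start and 7 the downstream one. Of those of STAU1, 1 used the upstream start and 7 the downstream one.

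The identity of both rows rests on the UCSC IDs. The reference tables used here pair neither row with a symbol, so identity was checked by the fall alone. A row that falls in the groups given its siRNA is what a correct label and a correct ID would both give, and the fall is not separate evidence for each. The STAU1 row had already drawn attention by its fall when the Staufen1 siRNA was added. Its values in the combined knockdown are therefore given as a description, with no p-value. The ADAR falls served in the identity check too. Their p-values speak for the falls and are not support for the identity of the row.

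Library totals ran from 20291057 to 29508632 estimated reads. Levels are given as reads per 1000000 reads of a library (CPM), scaled with edgeR's TMM factors, which assume that most rows do not change and averaged 0.8944 in siControl, 1.100 in siADAR1 and 1.016 in the combined knockdown. That assumption sits beside 62.6% of the tested rows called changed with siADAR1 against siControl, so small differences are given under other scalings too. Scaling to library totals instead shifted the median log2 fold change of all rows by 0.30 for siADAR1 against siControl, 0.18 for the combined knockdown against siControl and -0.11 between the knockdown groups. The labels do not say whether the replicates are separate cultures, and the p-values then speak only for the spread among these libraries, which may be technical. With 2 libraries against 2, the smallest two-sided p of an exact permutation test is 0.333, so p-values come only from the model fitted to all rows. Full separation of 2 libraries from 2 reaches just that p. Such separation, given below for the targets, is a description, and its share over all rows was not counted. Of 24 other genes listed for double-stranded RNA editing, binding, transport and Staufen-mediated decay, 0 could be matched to a row through these tables, and of 8 glioblastoma markers and 4 markers of other cell types also 0. Those genes and the labelled cell type were not analysed here.

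ADAR mRNA fell sharply in both groups given the ADAR1 siRNA. In siControl, the ADAR row held 9222 reads (512 CPM) in replicate a and 10369 reads (465 CPM) in replicate b. With siADAR1 it held 696 reads (25.08 CPM) and 814 reads (25.14 CPM). The siControl libraries lay far above both siADAR1 libraries, with no overlap. The mean went from 489 ± 34 CPM to 25.11 ± 0.038 CPM (SD, n = 2 each).

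The log2 fold change of ADAR with siADAR1 against siControl was -4.28 (SE 0.072, 95% interval -4.44 to -4.12), lower in both libraries. The quasi-likelihood test of edgeR, with p-values adjusted by Benjamini-Hochberg over all tested rows, gave an adjusted p of 6.02e-12. The level left was 5.14% of siControl (95% interval 4.61% to 5.73%), a loss of 94.9%. Falls were common in this comparison, where 29.7% of the tested rows were called lower, or 16.4% with library totals, so the call by itself sets ADAR little apart. Its size did more: 6 other rows of 14711 fell as far or further, and 3 of these had an average log2 CPM of at least 3, as 9007 rows had.

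**Figure D1:**
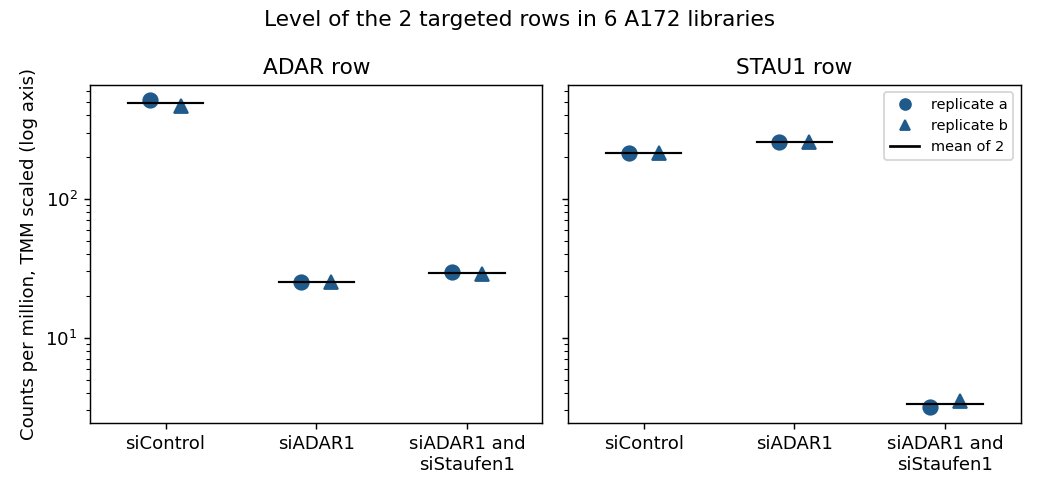
TMM-scaled CPM, on a log axis, of the ADAR row (left) and the STAU1 row (right) in each library, with circles for replicate a, triangles for replicate b and a line at the mean of 2. ADAR stood at 465 to 512 CPM in siControl and 25.08 to 29.7 CPM in the knockdown groups, and STAU1 dropped only in the combined knockdown, to 3.16 and 3.47 CPM.

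With the Staufen1 siRNA added, ADAR remained low. The ADAR row held 743 reads (29.7 CPM) in replicate a of the combined knockdown and 817 reads (28.7 CPM) in replicate b, a mean of 29.2 ± 0.72 CPM (SD, n = 2). Both libraries lay far below siControl and above both siADAR1 libraries, a split whose share over all rows was not counted. The log2 fold change of ADAR against siControl was -4.07 (SE 0.071, 95% interval -4.22 to -3.91), lower in both libraries (edgeR quasi-likelihood test, adjusted p = 7.48e-12). The level left was 5.97% of siControl (95% interval 5.36% to 6.65%), a loss of 94.0%.

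In this comparison 25.8% of the tested rows were called lower, and 12 other rows fell as far as ADAR or further, 3 of them at an average log2 CPM of at least 3. When both comparisons were required, which share the siControl libraries, ADAR was the 1 row that fell as far as ADAR did in each. A fall of at least 8-fold in both was seen in 7 rows, ADAR included.

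**Figure D2:**
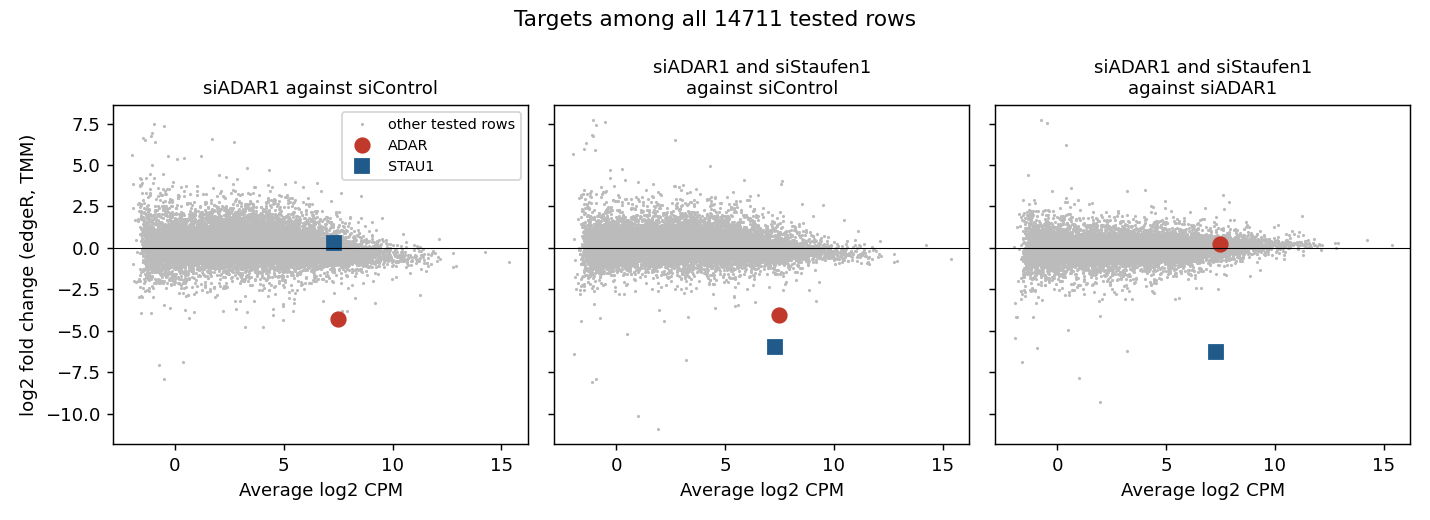
Log2 fold change (edgeR with TMM) of 14711 tested rows against average log2 CPM for the 3 comparisons, with ADAR as a red circle, STAU1 as a blue square and all other rows in grey. ADAR lies at -4.28 and -4.07 in the first 2 panels and near 0 in the third (0.22), while STAU1 lies near 0 (0.27) in the first and at -6.00 and -6.26 in the others.

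ADAR was slightly higher in the combined knockdown than with siADAR1 alone, on top of a near-complete loss in both. The log2 fold change between the knockdown groups was 0.22 (SE 0.071, 95% interval 0.06 to 0.37), higher in both libraries (edgeR quasi-likelihood test, adjusted p = 0.0281). The ADAR level in the combined knockdown was thus 116% of that with siADAR1 alone (95% interval 104% to 129%). Expressed in siControl levels, the gap between 5.14% and 5.97% was 0.832 percentage points. Rises of this kind were common, since 21.7% of the tested rows were called higher here, and 61.5% of the tested rows changed by as much or more in either direction.

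The call for this small difference lay near the threshold. It held by edgeR with DESeq2 size factors (adjusted p = 0.0266), upper-quartile factors (0.0155) and loess against abundance (0.0466). With library totals, which put the ADAR row at 27.6 ± 0.066 CPM (SD, n = 2) in siADAR1 and at 29.7 ± 0.92 CPM (SD, n = 2) with both siRNAs, the log2 fold change was 0.10 (95% interval -0.05 to 0.25). The adjusted p from edgeR was then 0.243. Measured from the median row, the difference was 0.22 under both scalings, which holds by construction for scaling factors. With limma-voom the adjusted p was 0.0536. Leaving out any of the 4 knockdown libraries moved the log2 fold change little, to between 0.19 and 0.23, but its SE rose to between 0.091 and 0.096 and the call ended. The adjusted p by edgeR was 0.121 and 0.123 without siADAR1 replicate a or b, and 0.145 and 0.0811 without combined knockdown replicate a or b. ADAR stood higher in the combined knockdown in all 17 alternatives, with log2 values from 0.10 to 0.24.

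The siADAR1 libraries lay closer together than counting error alone would place them. Their CPM values differed with a coefficient of variation of 0.151%, whereas the counting error alone of 696 and 814 reads is 3.79% and 3.50%. The exact 95% Poisson interval was 645 to 750 reads for replicate a of siADAR1 and 759 to 872 for replicate b. For the combined knockdown it was 691 to 798 for replicate a and 762 to 875 for replicate b. These intervals cover counting error only, and the SD of 2 such close libraries understates the error, whereas the SE of 0.071 from the fit draws on the spread of all rows.

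**Figure D3:**
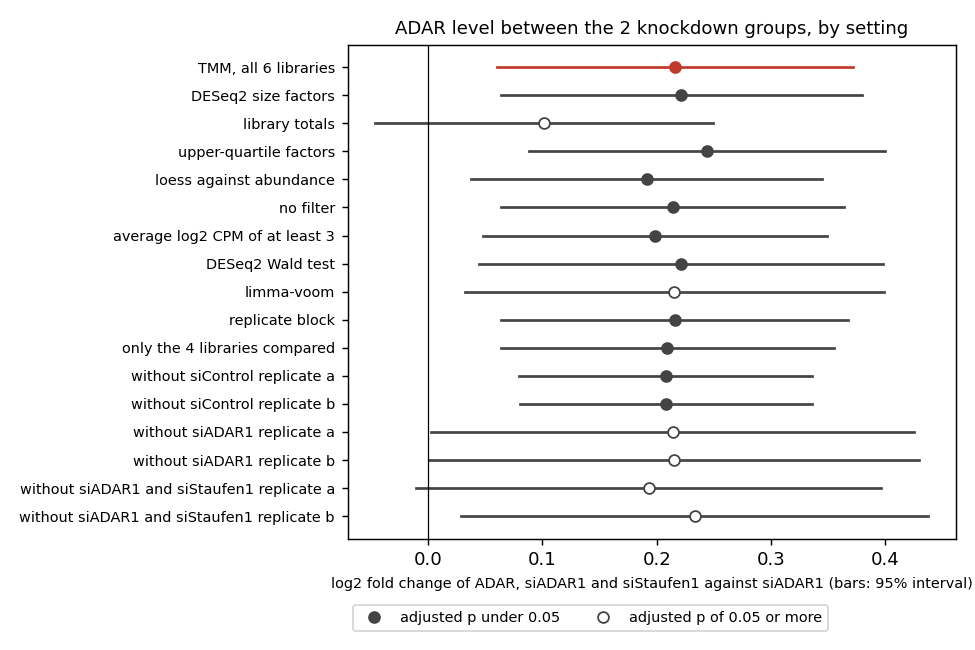
Log2 fold change of ADAR in the combined knockdown against siADAR1 (points) with its 95% interval (bars) as reported, in red, and under 16 other settings, in dark grey (glmTreat is left out, since its value and interval are those in red); filled points have an adjusted p under 0.05 and open points do not. All points lie above 0, between 0.10 and 0.24, and the intervals for library totals and for the fit without combined knockdown replicate a reach below 0.

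STAU1 mRNA was nearly lost where its siRNA was given. The STAU1 row held 3839 reads (213 CPM) and 4729 reads (212 CPM) in siControl replicates a and b. In the combined knockdown it held 79 reads (3.16 CPM) and 99 reads (3.47 CPM). The mean went from 213 ± 0.87 to 3.32 ± 0.22 CPM (SD, n = 2 each), with no overlap between the groups. The exact 95% Poisson intervals of the 79 and 99 reads were 62.5 to 98.5 and 80.5 to 121.

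The STAU1 log2 fold change in the combined knockdown was -6.00 against siControl (SE 0.080, 95% interval -6.17 to -5.82) and -6.26 against siADAR1 (SE 0.080, 95% interval -6.44 to -6.09). The level left was 1.57% of siControl (95% interval 1.39% to 1.77%) and 1.30% of siADAR1 (95% interval 1.15% to 1.47%). Against siADAR1, 3 other rows of 14711 fell as far or further, and 0 of those had an average log2 CPM of at least 3. Against siControl, 6 others did, 1 of them at that abundance. The share of tested rows called lower against siADAR1 was 21.5%, or 3170 rows, and with library totals 4411 rows were called lower.

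Any reads from the HA-tagged STAU1 plasmid named in the treatment text would share coding sequence with the cell's own STAU1 mRNA and could not be told apart from it in this row. Whether such reads were present in any of the 6 libraries was not tested.

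With the ADAR1 siRNA alone, STAU1 rose slightly. The row held 7110 reads (256 CPM) and 8264 reads (255 CPM) in siADAR1 replicates a and b, a mean of 256 ± 0.73 CPM (SD, n = 2). Both libraries lay above both siControl libraries, a split whose share over all rows was not counted. The log2 fold change was 0.27 (SE 0.055, 95% interval 0.15 to 0.39), higher in both libraries (edgeR quasi-likelihood test, adjusted p = 0.00117). This is 120% of siControl (95% interval 111% to 131%).

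The size of the STAU1 rise depended on the scaling. With library totals it was 0.57 on the log2 scale, or 148% of siControl, and over all 17 alternatives it ranged from 0.23 to 0.57. Measured from the median row it was 0.22 with TMM and 0.23 with library totals, a closeness that holds by construction for scaling factors. With loess against abundance, which is not a single factor for a library, it was 0.30. In this comparison 32.9% of the tested rows were called higher, or 48.2% with library totals, and 72.0% changed by as much as STAU1 or more in either direction. Under a test for a change beyond 1.5-fold (edgeR glmTreat) the call ended, with an adjusted p of 1.

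The rank of a row by reads within its own library needs no scaling, although it moves with the other rows too. ADAR ranked 360 and 394 among 20514 rows in the siControl libraries, 5612 and 5605 with siADAR1, and 5036 and 5126 in the combined knockdown. It went from more reads than 98.1% to 98.2% of rows to more than 72.6% to 72.7% with siADAR1 and 75.0% to 75.4% in the combined knockdown. The order of the groups was the same as in CPM, with the combined knockdown above siADAR1.

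STAU1 ranked 945 and 949 in siControl, 608 and 616 with siADAR1, and 11009 and 10808 in the combined knockdown. By rank as well, it stood higher with siADAR1 than in siControl. In the combined knockdown STAU1 had more reads than 46.2% and 47.2% of rows, against 95.4% in both siControl libraries.

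**Figure D4:**
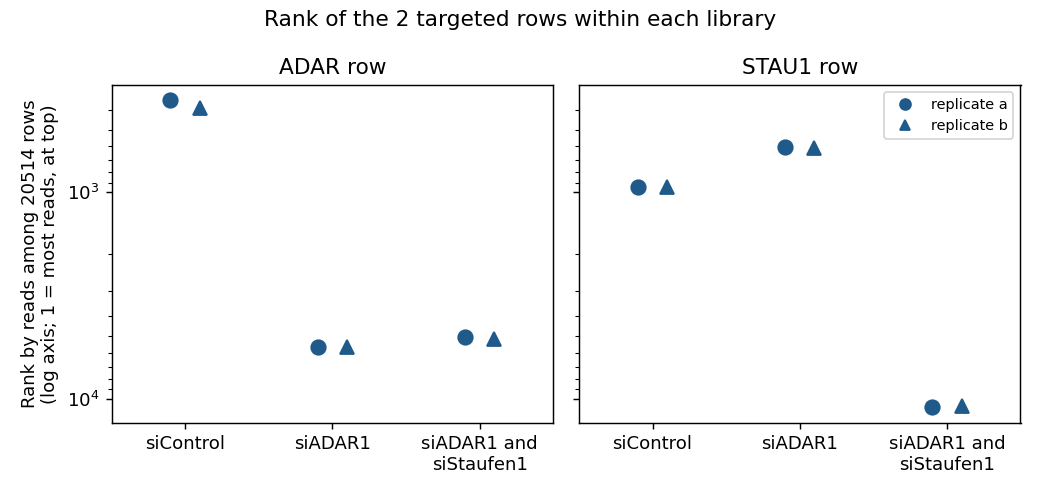
Rank by reads among 20514 rows within each library, on a log axis with rank 1 at the top, for ADAR (left) and STAU1 (right), with circles for replicate a and triangles for replicate b. ADAR dropped from ranks 360 and 394 to between 5036 and 5612 in the knockdown libraries, and STAU1 from 608 to 949 in the other groups to 10808 and 11009 in the combined knockdown.

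The rows with the most similar pattern were sought among 9006 other rows whose average log2 CPM was at least 3, by the Euclidean distance between centred log2 CPM values over the 6 libraries. The nearest row to ADAR was uc003dna.4, a row of 3 transcripts, at a distance of 0.543 where the median row lay at 4.80, with Pearson's r of 0.997 over 6 libraries of 3 groups. It held 1089 and 1499 reads in siControl, 111 and 125 reads with siADAR1, and 124 and 158 reads in the combined knockdown. The row was picked for its closeness over these same libraries. Its high r and a split of the groups like that of ADAR follow largely from that choice. Its log2 fold changes against siControl were -4.02 and -3.60, and it stood 0.42 higher in the combined knockdown than with siADAR1.

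The nearest row to STAU1 was uc001jep.4, a row of 4 transcripts, at a distance of 1.14 where the median was 7.11, with r = 0.987 over the same 6 libraries. It stood at 14.7 and 18.2 CPM in siControl and 14.6 and 8.52 CPM with siADAR1. In the combined knockdown it held 2 and 6 reads (0.080 and 0.21 CPM). It met the abundance limit through the siControl and siADAR1 libraries. Unlike STAU1, it was not higher with siADAR1 in CPM. In siADAR1 replicate a it held 405 reads (14.6 CPM), close to siControl replicate a with 265 reads (14.7 CPM). The order of these libraries rests on TMM scaling, and only siADAR1 replicate b lay well below siControl. The likeness of this row to STAU1 therefore rests on the low combined knockdown libraries. The tables used here name neither row. Both were picked as the nearest over these libraries, so their r values follow largely from the choice. Likeness in this measure is a description of these libraries.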

How the data were processed

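The authors deposited expected counts from RSEM, estimates of the reads per row, and all were whole numbers. Per the file headers, a row is a set of UCSC hg19 transcripts. The submitters' processing notes name RSEM 1.2.3 and edgeR without roles, and hg19. The labels' protocols name the miRNeasy kit for total RNA and the SENSE mRNA kit V2 (Lexogen). With the aligner, rounding and strand setting not given in the sources used here, reads of an antisense partner cannot be told apart. Every column matched a library by its labels.

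Rows were kept with filterByExpr (10 reads, total of 15), scaled with TMM and fitted in 1 model over 6 libraries with edgeR 4.0.16 (R 4.3.3), leaving 3 residual degrees of freedom. Contrasts were tested with the two-sided quasi-likelihood F test and Benjamini-Hochberg adjustment over 14711 rows, threshold 0.05. Standard errors came from the F statistic, and 95% intervals from the t distribution with the fit's total degrees of freedom. The fit was tested on simulated counts. Depth (20291057 to 29508632 reads) bears on counting error, and its other effects were not tested.

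Alternatives were other scalings (DESeq2 1.42.0 size factors, library totals, upper quartile, loess with span 0.3), other filters, DESeq2, limma-voom (limma 3.58.1), glmTreat, a replicate block, the 4 libraries compared, and each library left out. The named rows were the targets and the row nearest to each. The rows and gene lists were chosen with earlier results of these data known. Plots used Python 3.11.15 and matplotlib 3.10.9.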

Additional observations from a re-analysis of the deposited data

How the results depend on the processing

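For the 4 ADAR and STAU1 results that carry a p-value, 60 of 68 alternative values (17 each) kept their direction and their side of the threshold, 8 kept the direction but missed the threshold, and 0 reversed. The STAU1 falls in the combined knockdown are left out of this count. The large ADAR falls against siControl, far from the threshold, kept 17 of 17 in each knockdown group. ADAR between the knockdown groups kept 10 of 17, and STAU1 with siADAR1 kept 16 of 17. ADAR against siControl ranged from -4.36 to -3.98 with siADAR1 and from -4.15 to -3.88 in the combined knockdown, and the STAU1 falls from -6.09 to -5.81 against siControl and -6.38 to -6.20 against siADAR1. For ADAR between the knockdown groups, 7 alternatives missed the threshold: library totals (0.10), limma-voom (0.22), glmTreat (0.22), and leaving out each knockdown library, where the range over all 6 libraries was 0.19 to 0.23 and a group's single library is taken to vary as the other groups do. STAU1 with siADAR1 missed it under glmTreat (0.27), which asks for a larger change by construction. With the replicate block, ADAR between the knockdown groups was 0.22 (adjusted p 0.0242 by edgeR), and no call among these 4 results changed. Same-letter libraries deviated from their group means with correlations of 0.125, 0.0403 and 0.0843 across rows, and the letters were therefore not used as pairs. The rows called lower with siADAR1 numbered 4365 as reported, 2407 with library totals and 1307 with glmTreat. In the combined knockdown they numbered 3798, 2349 and 711 against siControl, and 3170, 4411 and 571 against siADAR1, in the same order of settings. The 79 and 99 STAU1 reads limit how closely its remaining level is known.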
